A study of Mus musculus with 24 samples.

Results

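The genes described here make sterols and fatty acids and are controlled by the sterol regulatory element-binding proteins (SREBPs). They were taken as the rows of the deposited count table whose Ensembl identifiers carry 30 listed gene symbols in the GENCODE M21 annotation, and all 30 were found among the 48985 rows. The rule used symbols only and no measured value, but the list was chosen with earlier results of these data known. Cells build cholesterol from acetyl-CoA through mevalonate, farnesyl diphosphate and squalene, and fatty acids from acetyl-CoA through malonyl-CoA. When membrane sterol is low, Scap carries SREBP-2 (gene Srebf2) and SREBP-1 (Srebf1) from the endoplasmic reticulum to the Golgi, where they are cut and released to switch on these genes. When sterol is plentiful, Insig1 and Insig2 hold Scap back, so the pathway is fed back on itself.

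All 24 libraries came from 1 female mouse embryonic stem cell line, F121/9, a hybrid that carries 1 genome set from CAST/EiJ and 1 from 129/Sv (named 129S1 in the table). Cells grew without serum in 2i plus leukemia inhibitory factor (LIF), where the pair of inhibitors were PD0325901 against MEK at 1 µM and CHIR99021 against GSK-3β at 3 µM, with N-2 and B-27 supplements. The study made 5 recombinations, called d3 and d6, and i7, i10 and i12 (the letters are not spelled out in the labels), and compared recombined clones with the parental line of the same recombination (genotype control in the labels). Clones 12 and 21 belong to d3, clone 16 to d6, clones 7 and 12 to i7, clone 18 to i10 and clone 10 to i12, so each of the 7 clone results rests on 1 clone. Every line and clone has 2 libraries, described by the submitters as biological duplicates, and polyA RNA was read as single-end 75-base reads. In bulk RNA, fewer cells of a type and less RNA per cell cannot be told apart.

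Total counts per library, summed over both alleles, ran from 3286819 to 15581094, with d3 among the deepest and i10 and i12 the shallowest. The summed level of 7 stem cell markers was 5941 to 8288 counts scaled to 1000000 per library (CPM), against 2.13 to 11.9 for 6 primitive endoderm markers, of which Gata6, Sox17 and Foxa2 had medians of 3 counts or fewer. One library, replicate 2 of the d3 parental line, stood apart from the others of its recombination. It had 3.16% of its counts on mitochondrial genes, against 6.11% to 8.21% in the other d3 libraries. It held the lowest level of all 24 libraries for 5 of the 30 genes and the highest for 3. Other libraries held extremes too: i10 clone 18 replicate 2 was lowest for 5 genes and i10 parental replicate 2 for 4. In d6, clone 16 replicate 1 was highest for 5 and had 4.48% mitochondrial counts, against 7.5% to 8.61% in the other d6 libraries. Results that rest on d3 parental replicate 2 are given with and without it.

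To show the regulatory DNA that these genes carry, RefSeq promoter windows (250 bases before to 50 after the start, build GRCm38.p6) were read for the 26 genes that matched, in 35 windows. Each was searched on both strands for the sterol regulatory element TCACNCCAC, the type that SREBP proteins bind, and for CCAAT, the box bound by NF-Y, a common partner of SREBP. The element TCACNCCAC was in 1 of 35 windows (2.86%), that of Hmgcs1, against 1.24% of 32851 windows of all genes. CCAAT was in 22 of the 35 (62.9%) against 37.4% of all windows, and in 21 of the 26 genes. The part before the annotated gene start is printed for Hmgcs1, the only gene with both motifs (chr13:119690101-119690350, plus strand), for Fasn, the gene whose level varied most (chr11:120824548-120824797, minus strand), for Mvk, the mevalonate kinase with the larger replicate difference in i10 (chr5:114444019-114444268, plus strand), and for Insig1, the feedback gene (chr5:28071162-28071362, plus strand). Each is written 5′ to 3′ on the gene's strand, and capitals mark every match of either motif on either strand, so that CCAAT on the other strand reads ATTGG.
Hmgcs1: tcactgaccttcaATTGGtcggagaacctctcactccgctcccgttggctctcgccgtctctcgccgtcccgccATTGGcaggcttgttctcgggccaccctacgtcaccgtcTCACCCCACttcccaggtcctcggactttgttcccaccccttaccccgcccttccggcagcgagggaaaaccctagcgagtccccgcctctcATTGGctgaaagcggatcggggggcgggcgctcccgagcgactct
Fasn: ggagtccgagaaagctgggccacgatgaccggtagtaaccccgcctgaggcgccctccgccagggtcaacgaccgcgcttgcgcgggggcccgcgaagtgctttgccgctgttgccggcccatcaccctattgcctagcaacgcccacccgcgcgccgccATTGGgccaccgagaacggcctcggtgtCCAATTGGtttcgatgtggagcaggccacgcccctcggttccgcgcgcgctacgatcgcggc
Mvk: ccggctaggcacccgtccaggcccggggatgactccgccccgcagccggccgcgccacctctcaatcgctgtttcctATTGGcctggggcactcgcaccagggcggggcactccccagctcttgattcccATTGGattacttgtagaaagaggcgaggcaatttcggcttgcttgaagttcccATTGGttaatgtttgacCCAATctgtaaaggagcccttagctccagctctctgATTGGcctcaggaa
Insig1: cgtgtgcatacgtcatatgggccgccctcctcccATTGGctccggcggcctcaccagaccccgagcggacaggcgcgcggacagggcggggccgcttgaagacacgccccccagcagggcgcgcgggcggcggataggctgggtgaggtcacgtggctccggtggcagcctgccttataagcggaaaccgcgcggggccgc
In Hmgcs1 the sterol regulatory element begins 137 bases upstream of the RefSeq start. The Fasn window holds 3 CCAAT matches, a pair of which overlap in CCAATTGG, and the Mvk window holds 5, all within 173 bases of the start. These are letter matches, and a window without a match says only that these letters are not in it.

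Levels of the 30 genes are given as CPM, and as CPM per kilobase of exon where genes are compared with each other. How reads that cover no strain difference were counted is not stated. If they were left out, the order of genes also depends on how many strain differences each carries, which was not tested. Per kilobase, the highest medians over the 24 libraries were those of Acly (107), which makes cytosolic acetyl-CoA from citrate, and Hmgcs1 (97.4), the synthase that opens the mevalonate route after the first thiolase step. Idi1 (75.4), Pmvk (73) and Elovl6 (71) followed. The lowest were Scap (2.21), the SREBP escort, and Acss2 (0.289), which makes acetyl-CoA from acetate. Neighbours in this order often overlapped over the libraries: Pmvk ranged from 42.9 to 109 and Elovl6 from 52 to 93.8. Acss2, at 0.15 to 0.552, lay below every other gene in all libraries.

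**Figure D1:**
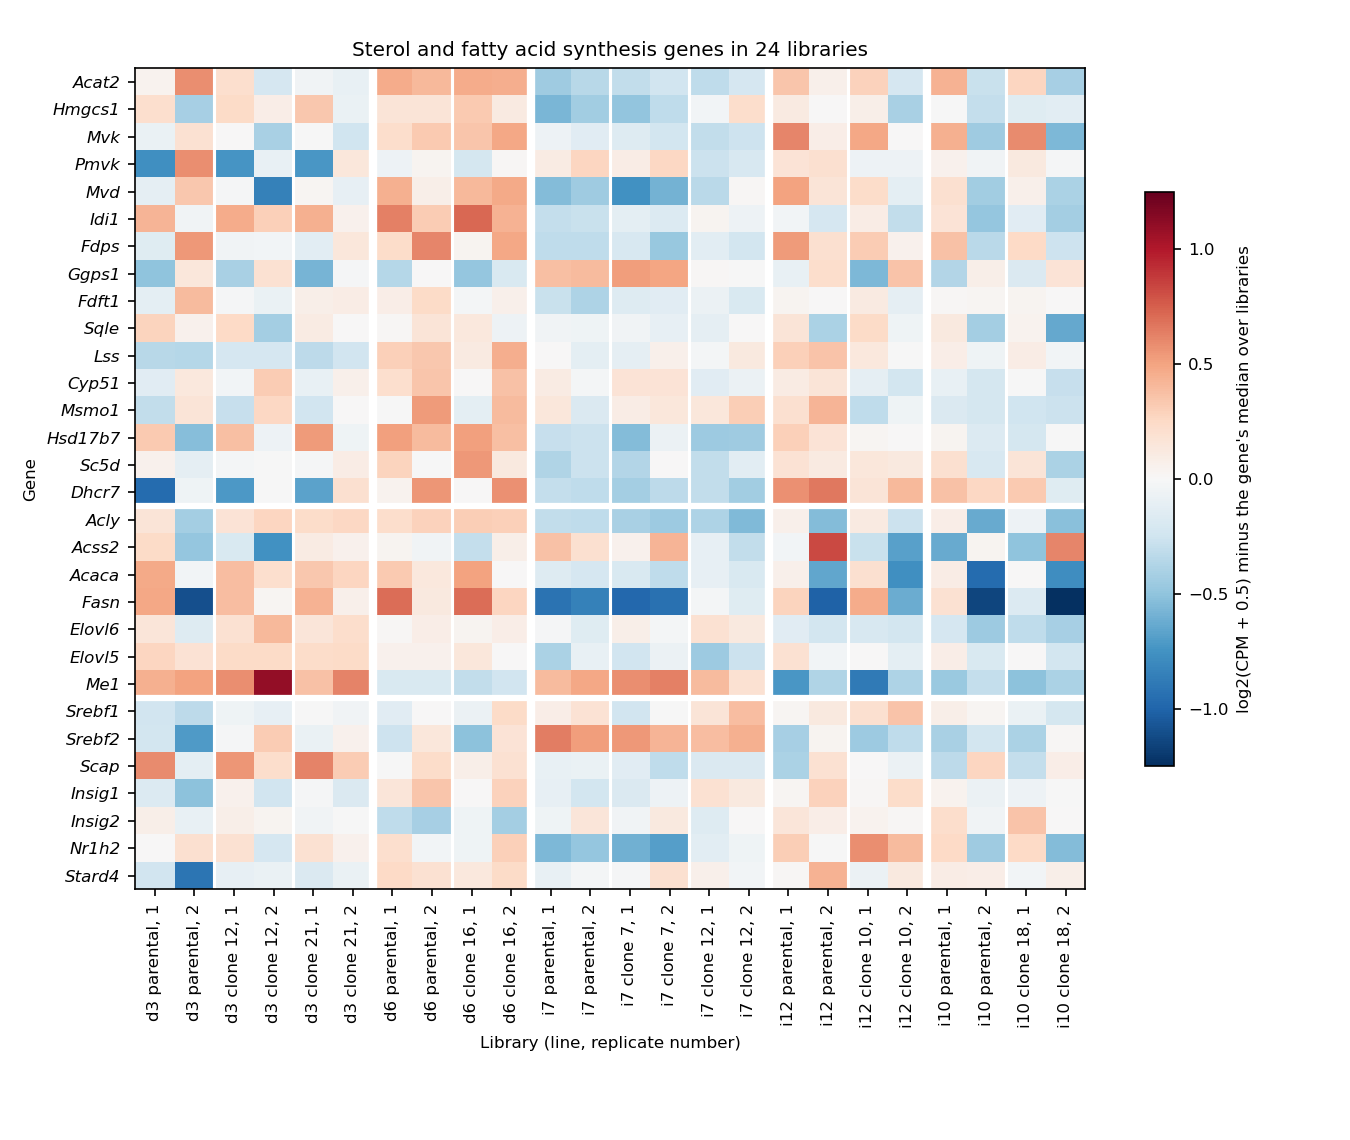
Level of each of the 30 genes in each of the 24 libraries, as the log2 ratio of its CPM (pseudocount 0.5) to its median over all libraries. Rows are genes by role, columns are libraries by line and replicate. Replicates 1 and 2 of d3, i12 and i10 differ for Fasn, and the i7 libraries are high for Srebf2.

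The spread of a gene over the 24 libraries was measured as the standard deviation of log2 CPM. Its median over the 30 genes was 0.318, against 0.399 over all 16253 genes that passed the filter on low counts, and all 30 passed. Fasn varied most (0.659, above 85.4% of tested genes), followed by Me1 (0.524), Dhcr7 (0.445), Acaca (0.404) and Acss2 (0.399). Fdft1, squalene synthase, varied least (0.161). The samples were then compared in 4 ways: clone with parental line, clone with clone, parental line with parental line, and libraries labelled replicate 1 with those labelled replicate 2. Changes are log2 fold changes from edgeR's quasi-likelihood test on summed counts over all 16253 genes, with standard error (SE), and a gene is called at a Benjamini-Hochberg adjusted p under 0.05.

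No gene of the set was called in any clone against its parental line, in 210 tests of the main fit, and 5 of the 210 had an unadjusted p under 0.05 (0.295% to 6.19% of all genes in a clone). Among all genes tested, the share called was 0.0123% for d3 clone 12, 0.0554% for d3 clone 21, 0.0123% for d6 clone 16, 0.0246% for i7 clone 12, and 0% for i7 clone 7, i12 clone 10 and i10 clone 18. Of the 210 changes, 202 were under 0.5 in size and 168 under 0.25, with a median SE of 0.24. Larger changes also went uncalled, such as Fasn at 0.80 in i7 clone 12, whose own SE was above that median (given with the gene). The lack of calls therefore does not exclude changes of that size. In d6 clone 16 all 30 genes changed by less than 0.25. The median change of the 30 ranged from -0.10 in i12 clone 10, where 8 of 30 were higher, to 0.09 in d3 clone 12, where 21 of 30 were higher, while the median over all genes tested ran from -0.014 to 0.0092. The mean over the clones called none of the 30 either (0.0123% of all genes), nor did clone 21 against clone 12 in d3 (0.0492%) or clone 12 against clone 7 in i7 (0.0923%). At an unadjusted p under 0.05 these held 0, 0 and 3 of the 30 genes. DESeq2 called none of the 30 in any of these comparisons. Same-numbered libraries of a recombination deviated together, and with the replicate number as a block Hmgcs1 and Fasn were called in i7 clone 12 (6.27% of all genes), and 5 genes between the i7 clones (9.76%). These values are given with each gene.

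**Figure D2:**
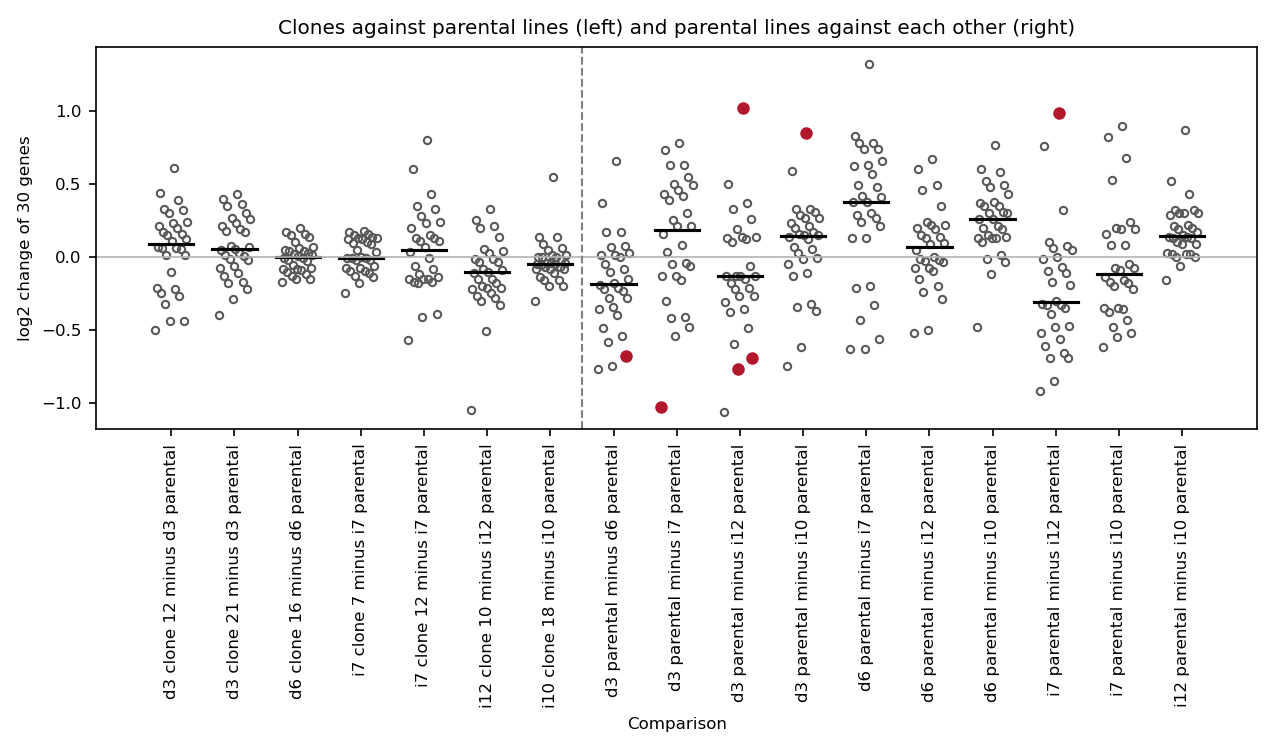
Log2 fold changes of the 30 genes in each clone against its parental line and in each pair of parental lines, each point 1 gene, red where the adjusted p was under 0.05, with the median as a bar. No clone comparison has a called gene in the main fit, and the pairs of parental lines have 7.

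Parental lines differed more. In the 10 pairs of parental lines, 7 of 300 tests passed, 3 higher and 4 lower, in the 4 genes Lss, Srebf2, Stard4 and Me1, and 63 had an unadjusted p under 0.05 (1.62% to 25% of all genes in a pair). All 7 involved d3 or i7. Among all genes, 1.82% were called between d3 and d6, 3.73% between d3 and i7, 4.96% between d3 and i12, 3.35% between d3 and i10 and 2.2% between i7 and i12, so 1 or 3 of 30 genes (3.33% or 10%) is not far from the background. None of the 30 was called between d6 and i7 (1.13% of all genes). There 16 had an unadjusted p under 0.05 (14.3% of all genes). Of the 30, 23 were higher in d6, with a median of 0.38 against -0.00093 over all genes tested. None was called either between i7 and i10 (1.13% of all genes), d6 and i12 (0.172%), d6 and i10 (0%) or i12 and i10 (0%), with 3, 2, 4 and 2 genes at an unadjusted p under 0.05 (15%, 15.5%, 11.7% and 1.62% of all genes). In these 5 pairs DESeq2 called 3 results, Idi1 between d6 and i7 and Srebf2 and Me1 between i7 and i10. Between i12 and i10, all 15 genes of the cholesterol branch (Acat2 to Dhcr7 in the order given below, without Ggps1) had higher values in i12. Their median was 0.29, against -0.0035 over all genes tested. The 15 were read in the same libraries, so they are not separate observations, and their direction was not tested as a set. When each pair was fitted on its own 4 libraries all 7 calls were lost and Fasn between d6 and i7 was gained. The pairs share lines, and 1 of the 2 d3 parental libraries is the library that stands apart.

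The largest number of calls came between libraries labelled replicate 1 and those labelled replicate 2 of the same recombination, a comparison made within each line and clone and joined over those of a recombination. The labels do not say whether a number marks a shared day, batch or passage. Over all tested genes the replicate difference was correlated between lines of d3 and d6 (r 0.40 to 0.62). The same held between lines of i12 and i10 (r 0.55 to 0.64). Calls shared by d3 and d6, or by i12 and i10, may therefore not be separate observations. Of 150 tests, 33 passed, 21 higher and 12 lower in replicate 1, in 21 of the 30 genes. The counts were 13 of 30 in d3 (43.3%, against 28.6% of all genes), 4 in d6 (13.3%, against 19.6%), 0 in i7 (against 4.31%, with 1 gene of the 30 at an unadjusted p under 0.05 and 0 by DESeq2), 6 in i12 (20%, against 19.4%) and 10 in i10 (33.3%, against 17.7%). The shares in d6 and i12 lie near or below that of all genes. Directions differed: in d3, 7 rose and 6 fell (14.1% and 14.6% of all genes), in d6 all 4 fell (10.4%, against 9.27% that rose), in i12, 4 rose and 2 fell (8.86% and 10.5%), and in i10 all 10 rose (8.09%, against 9.57% that fell). Other values moved with the number as well, among them sums of marker genes, each led by 1 gene. By median over the libraries the neural sum was mostly Nes (47.3 CPM, against 1.68 for Sox1 and 0.117 for Pax6). The mesendoderm sum was mostly T (11.9 CPM, against 3.22 for Eomes and 0.926 for Mixl1). In d3 neural markers summed to 36.5 to 42.9 CPM in replicate 1 and 61.8 to 78.2 in replicate 2, and mesendoderm markers to 45.2 to 60.8 and 24.6 to 39.3. In d6 the neural sums were 30 and 33 CPM in replicate 1 and 42.7 and 47 in replicate 2, and the mesendoderm sums 21.3 and 21.9 against 14 and 17. In i10 the neural sums were 40.8 and 41.1 against 66.5 and 65.2, and the mesendoderm sums 16.4 and 10.4 against 4.23 and 5.93. In i12 the neural sums overlapped, and the mesendoderm sums were 25.5 and 31 against 12.5 and 20.8. In i10 the mitochondrial share was 3.57% and 2.85% in replicate 1 and 5.91% and 4.42% in replicate 2, and in i12 it was 3.29% and 3.84% against 5.12% and 5.51%. The part of these in the results was not tested.

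**Figure D3:**
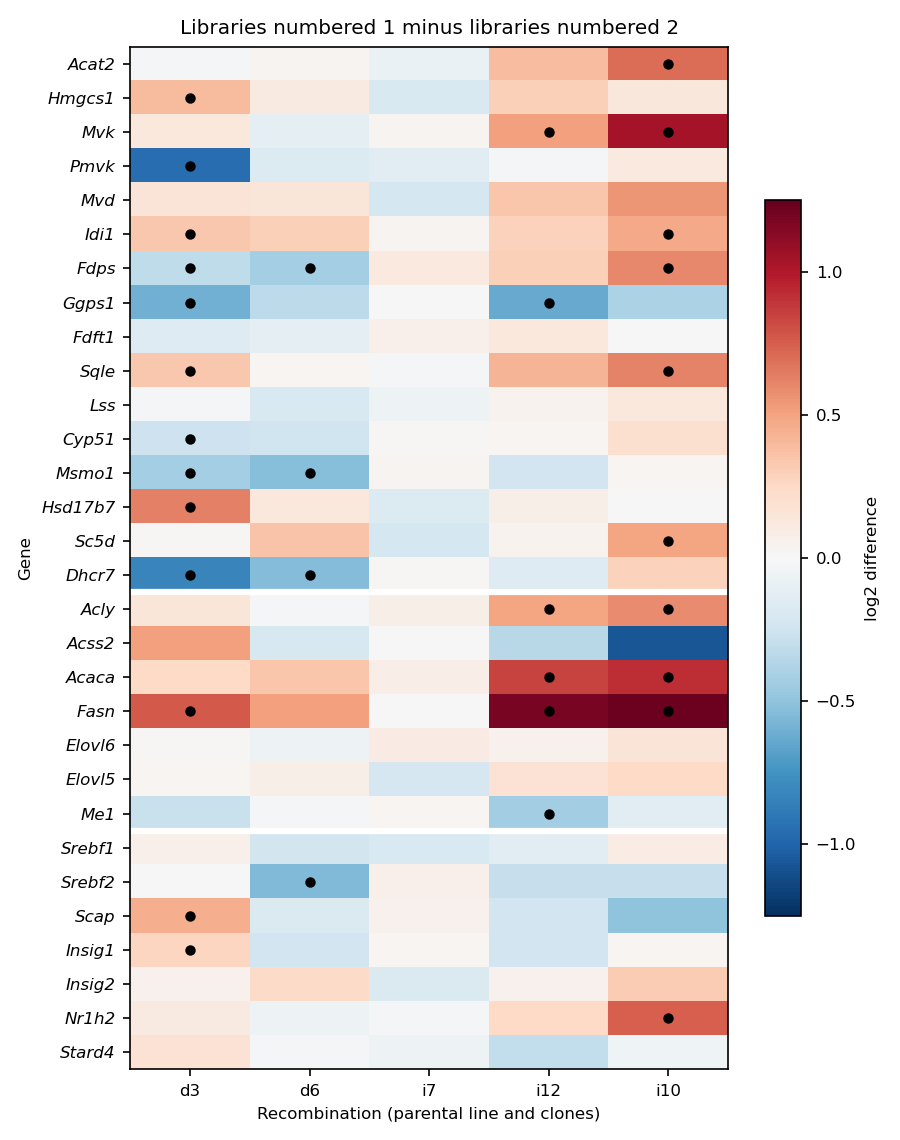
Log2 difference of replicate 1 over replicate 2 for the 30 genes within each recombination, as colour from blue (lower in replicate 1) to red (higher). Black dots mark adjusted p under 0.05: the i7 column has none, the 10 in i10 are all red and the 4 in d6 all blue.

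Because d6, i12 and i10 have 4 libraries each, leaving out any 1 of them leaves 1 pair of libraries for this comparison. Of the 4 calls in d6 none was left without any 1 of its libraries, 2 of 6 were left in i12 and 2 to 4 of 10 in i10, while in d3, with 6 libraries, 10 to 13 genes were called. Without d3 parental replicate 1 or 2 the calls in d6 rose to 10 or 9, of which 4 were higher in replicate 1 each time, and those in i12 to 12. Over the whole set the count of 33 ran from 19 without replicate 1 or 2 of the i10 parental line, and 21 without i10 clone 18 replicate 1, to 46 without d3 parental replicate 1. Called in every alternative run were Pmvk, Dhcr7, Hsd17b7 and Ggps1 in d3, Acaca in i12, and Acaca and Mvk in i10. A joint test, added after the data were seen, asked for each gene whether the replicate difference itself varied between the 5 recombinations. It passed for 11 of the 30 genes, beside 4017 of all 16253 genes tested. The genes follow by role, replicate 1 named before replicate 2. Replicate differences are described mostly where called, and replicates of other recombinations can also lack overlap, as the values printed for each library show.

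Acat2, a cytosolic thiolase, joins 2 acetyl-CoA molecules in the first step toward mevalonate. Acat2 stood at 69.1 and 101 CPM (parental line), 78 and 58.2 (clone 12) and 65.4 and 63.2 (clone 21) in d3. Acat2 reached 93 and 89.2 (parental) and 93 and 92.2 (clone 16) in d6, against 49.4 and 52.8 (parental), 54.4 and 56.7 (clone 7) and 54 and 58 (clone 12) in i7. Acat2 values for i12 were 85.7 and 70.4 (parental) and 82 and 58.2 (clone 10), and for i10 90.8 and 55.3 (parental) and 81 and 50.2 (clone 18). The d6 libraries lay above all i7 libraries, and d3 parental replicate 2 was the highest of all. In i10 both replicate 1 libraries were above both replicate 2 libraries, a difference of 0.70 (SE 0.18, adjusted p 0.0113) that was lost without any 1 of the 4 libraries (0.71 to 0.73, adjusted p 0.118 to 0.145). A paralog, Acat3, shares 97.7% of 1477 bases with Acat2, so reads may have been split between them.

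Hmgcs1 (ENSMUSG00000093930.2, chr13:119690379-119708260, plus strand) makes HMG-CoA, the precursor of mevalonate. In d3, Hmgcs1 measured 518 and 336 CPM for the parental line, 529 and 474 for clone 12 and 564 and 423 for clone 21. In d6, Hmgcs1 measured 499 and 499 for the parental line and 561 and 483 for clone 16, and in i7 it measured 301 and 330 for the parental line, 318 and 358 for clone 7 and 437 and 522 for clone 12. In i12, Hmgcs1 measured 485 and 448 for the parental line and 472 and 338 for clone 10, and in i10 it measured 447 and 365 for the parental line and 404 and 408 for clone 18. The i7 parental line and clone 7 were low, and clone 12 was above both without overlap, at 480 ± 59.7 CPM (SD, n = 2) against 316 ± 20.5 in the parental line. That change of 0.60 (SE 0.21) had the smallest unadjusted p of the clone tests, 0.0112, and an adjusted p of 0.55. With the replicate block Hmgcs1 was called against the parental line (0.60, SE 0.133, adjusted p 0.013) and against clone 7 (0.50, SE 0.133, adjusted p 0.0239). In d3 all 3 replicate 1 libraries were above all replicate 2 libraries, by 0.40 (SE 0.11, adjusted p 0.0117). Without d3 parental replicate 1 the difference was 0.27 with adjusted p 0.0509.

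Mvk, mevalonate kinase (chr5:114444269-114460591, plus strand), adds the first phosphate to mevalonate. Mvk levels of the d3 libraries were 42.2 and 51 CPM (parental), 44.7 and 33.5 (clone 12) and 44.6 and 37.5 (clone 21). Those of Mvk for d6 were 52.2 and 56.3 (parental) and 57 and 62.7 (clone 16), and for i7 42.7 and 40.5 (parental), 39.9 and 38 (clone 7) and 35.9 and 37.3 (clone 12). The remaining Mvk values were 68.3 and 47.4 (parental) and 62.7 and 44.8 (clone 10) for i12, and 60.9 and 32.6 (parental) and 67.7 and 30 (clone 18) for i10. In i10 both replicate 1 libraries lay above both replicate 2 libraries, with no overlap. The difference of 1.04 (SE 0.17, adjusted p 0.000458) held without each of the 4 libraries (0.91 to 1.20). In i12 it was 0.51 (SE 0.16, adjusted p 0.0341) and was lost without any 1 of the 4 libraries (0.48 to 0.56, adjusted p 0.175 to 0.271). The i7 libraries overlapped, at 0.03 (SE 0.12, adjusted p 0.942), and the joint test of Mvk across recombinations passed (adjusted p 0.00576).

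Pmvk, phosphomevalonate kinase, adds the second phosphate. Pmvk stood at 73.5 and 187 CPM (parental line), 74.6 and 117 (clone 12) and 75.3 and 138 (clone 21) in d3. Pmvk reached 120 and 128 (parental) and 107 and 126 (clone 16) in d6, against 134 and 151 (parental), 133 and 150 (clone 7) and 104 and 109 (clone 12) in i7. Pmvk values for i12 were 141 and 144 (parental) and 120 and 120 (clone 10), and for i10 130 and 121 (parental) and 136 and 124 (clone 18). The lowest and the highest of all 24 values were the pair of d3 parental libraries, and in d3 all replicate 1 libraries lay below all replicate 2 libraries. The d3 difference was -0.95 (SE 0.11, adjusted p 1.61e-05) and stayed between -1.11 and -0.76 when any 1 of the 6 d3 libraries was left out. Elsewhere replicate differences of Pmvk did not pass: -0.17 in d6, -0.14 in i7, -0.016 in i12 and 0.12 in i10. The joint test for Pmvk passed (adjusted p 0.00173). Mvd, the decarboxylase that makes isopentenyl diphosphate, ranged from 17.6 to 45.7 CPM and was called in no main comparison. Replicate 1 of Mvd was higher in i10 when the 4 i10 libraries were fitted alone (0.54, SE 0.16, adjusted p 0.00338), and in d3 without parental replicate 1 (0.45, adjusted p 0.0213) or 2 (0.47, adjusted p 0.0183).

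Idi1 interconverts the isopentenyl and dimethylallyl diphosphates, the building units of all isoprenoids. In d3, Idi1 measured 355 and 256 CPM for the parental line, 364 and 325 for clone 12 and 359 and 274 for clone 21. In d6, Idi1 measured 410 and 330 for the parental line and 435 and 358 for clone 16, and in i7 it measured 214 and 218 for the parental line, 242 and 235 for clone 7 and 270 and 253 for clone 12. In i12, Idi1 measured 258 and 228 for the parental line and 282 and 213 for clone 10, and in i10 it measured 297 and 189 for the parental line and 240 and 197 for clone 18. The 4 d6 libraries were among the highest, and the i7, i12 and i10 libraries lay lower, from 189 to 297 CPM. Replicate 1 was above replicate 2 without overlap in d3, d6, i12 and i10. The difference was called in d3, 0.34 (SE 0.098, adjusted p 0.0161), and in i10, 0.47 (SE 0.12, adjusted p 0.0154), and not in d6 or i12. The d3 call was lost without either library of clone 21 (0.33, adjusted p 0.0683 and 0.0706), and the i10 call without either parental library (0.31 and 0.30, adjusted p 0.378 and 0.395). Gm13502, identical to Idi1 over 684 bases, was not analysed here.

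Fdps joins these units into farnesyl diphosphate, the branch point to sterols and prenylated proteins. Fdps levels of the d3 libraries were 132 and 214 CPM (parental), 143 and 144 (clone 12) and 134 and 162 (clone 21). Those of Fdps for d6 were 172 and 224 (parental) and 150 and 205 (clone 16), and for i7 118 and 118 (parental), 128 and 106 (clone 7) and 134 and 125 (clone 12). The remaining Fdps values were 213 and 169 (parental) and 183 and 153 (clone 10) for i12, and 190 and 116 (parental) and 175 and 123 (clone 18) for i10. Its direction differed between recombinations: replicate 1 was lower in d3, -0.32 (SE 0.11, adjusted p 0.0429), and in d6, -0.42 (SE 0.14, adjusted p 0.0453), and higher in i10, 0.60 (SE 0.15, adjusted p 0.0085). The joint test passed for Fdps (adjusted p 0.00405). In d3 the difference fell to -0.15 without parental replicate 1 and -0.14 without parental replicate 2, and it missed the threshold without either clone 21 library (-0.35 and -0.34, adjusted p 0.0901 and 0.0875). The d6 and i10 calls were each lost without any 1 of their 4 libraries (-0.46 to -0.38 and 0.53 to 0.72, adjusted p 0.181 to 0.337 and 0.0626 to 0.19). Fdps overlaps Gm43738 on the same strand and has a near copy, Gm5873 (97.9% over 476 bases), so its counts are uncertain.

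Ggps1 makes geranylgeranyl diphosphate from farnesyl diphosphate, for protein prenylation rather than sterols. Ggps1 stood at 36.2 and 56.7 CPM (parental line), 38.7 and 58.5 (clone 12) and 34.2 and 50.8 (clone 21) in d3. Ggps1 reached 40.1 and 51.4 (parental) and 36.5 and 44.9 (clone 16) in d6, against 67 and 67.8 (parental), 73.8 and 72.6 (clone 7) and 51.8 and 51.3 (clone 12) in i7. Ggps1 values for i12 were 48.1 and 59.7 (parental) and 34.6 and 66 (clone 10), and for i10 39.7 and 54.1 (parental) and 45.2 and 57.9 (clone 18). In d3, d6, i12 and i10 every replicate 1 library was below every replicate 2 library. The log2 difference was called in d3, -0.60 (SE 0.11, adjusted p 0.000709), and in i12, -0.63 (SE 0.14, adjusted p 0.00614), and not in d6 or i10. The 6 i7 libraries differed by line and not by number, with clone 12 lowest. Clone 12 was below clone 7 in Ggps1 by the fit with the replicate block (-0.51, SE 0.132, adjusted p 0.0225), and this did not pass without it. Without any 1 library of d3 its difference stayed within -0.61 to -0.58. In i12 it was -0.27 and -0.28 without clone 10 replicate 1 or 2 (adjusted p 0.409 and 0.408). The joint test passed for Ggps1 (adjusted p 0.0367).

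Fdft1, squalene synthase, commits farnesyl diphosphate to sterols (ENSMUSG00000021273.11, chr14:63145150-63179578, minus strand). In d3, Fdft1 measured 110 and 158 CPM for the parental line, 119 and 113 for clone 12 and 126 and 128 for clone 21. In d6, Fdft1 measured 127 and 142 for the parental line and 118 and 125 for clone 16, and in i7 it measured 98.9 and 92 for the parental line, 107 and 109 for clone 7 and 114 and 105 for clone 12. In i12, Fdft1 measured 123 and 120 for the parental line and 130 and 111 for clone 10, and in i10 it measured 121 and 122 for the parental line and 123 and 120 for clone 18. The values were close together, with d3 parental replicate 2 the highest and the i7 parental libraries among the lowest, and no main comparison of summed counts called Fdft1. Sqle, squalene epoxidase, is a rate-controlling step after it. Sqle levels of the d3 libraries were 126 and 108 CPM (parental), 124 and 77.3 (clone 12) and 112 and 104 (clone 21). Those of Sqle for d6 were 105 and 116 (parental) and 114 and 99.2 (clone 16), and for i7 101 and 100 (parental), 101 and 97.1 (clone 7) and 96.4 and 104 (clone 12). The remaining Sqle values were 116 and 78.8 (parental) and 123 and 100 (clone 10) for i12, and 113 and 77.1 (parental) and 107 and 66.6 (clone 18) for i10. In d3, i12 and i10 every replicate 1 library of Sqle was above every replicate 2 library. The difference was called in i10, 0.62 (SE 0.15, adjusted p 0.00855), and in d3, 0.34 (SE 0.11, adjusted p 0.0369), and not in i12. The i10 call was lost without any 1 of its 4 libraries (0.56 to 0.72, adjusted p 0.0916 to 0.158), and the d3 difference fell to 0.17 without either clone 12 library (adjusted p 0.322 and 0.324).

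Lss closes squalene epoxide into lanosterol, the first sterol (chr10:76531588-76557138, plus strand). Lss stood at 126 and 125 CPM (parental line), 139 and 139 (clone 12) and 128 and 136 (clone 21) in d3. Lss reached 198 and 203 (parental) and 174 and 220 (clone 16) in d6, against 161 and 147 (parental), 148 and 168 (clone 7) and 158 and 175 (clone 12) in i7. Lss values for i12 were 198 and 206 (parental) and 176 and 160 (clone 10), and for i10 170 and 155 (parental) and 171 and 157 (clone 18). All 6 d3 libraries, 125 to 139 CPM, lay below all other libraries. The d3 parental line, at 125 ± 1.03 CPM (SD, n = 2), was lower than the d6 parental line, at 200 ± 3.05, at a log2 difference of -0.68 (SE 0.14, adjusted p 0.0258), and lower than the i12 parental line, at 202 ± 5.86, at a log2 difference of -0.69 (SE 0.15, adjusted p 0.0132). Against d6 the value hardly moved without d3 parental replicate 2 (-0.66), d6 parental replicate 1 (-0.72) or replicate 2 (-0.67), but the adjusted p rose to 0.132, 0.102 and 0.191. Against i12 it was -0.67 without d3 parental replicate 2 (adjusted p 0.0535) and -0.68 without i12 parental replicate 2 (0.13). A joint test over the 5 parental lines was added after the data were seen. It passed for Lss (adjusted p 0.0276), Me1 (0.00786) and Srebf2 (0.0462), beside 1079 of all 16253 genes tested.

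Cyp51 removes a methyl group from lanosterol. In d3, Cyp51 measured 228 and 276 CPM for the parental line, 246 and 315 for clone 12 and 236 and 263 for clone 21. In d6, Cyp51 measured 292 and 320 for the parental line and 253 and 325 for clone 16, and in i7 it measured 271 and 247 for the parental line, 284 and 284 for clone 7 and 228 and 240 for clone 12. In i12, Cyp51 measured 270 and 282 for the parental line and 233 and 215 for clone 10, and in i10 it measured 236 and 217 for the parental line and 251 and 206 for clone 18. In d3 and d6 replicate 1 was below replicate 2 without overlap, at a log2 difference of -0.26 (SE 0.093, adjusted p 0.0429) and -0.25 (adjusted p 0.142). The d3 call was lost without either clone 12 library (-0.21 and -0.22, adjusted p 0.172 and 0.17) or either clone 21 library (-0.31 both, 0.0634 and 0.0644). Msmo1, a methyl oxidase, acts next. Msmo1 levels of the d3 libraries were 134 and 185 CPM (parental), 135 and 198 (clone 12) and 140 and 166 (clone 21). Those of Msmo1 for d6 were 165 and 239 (parental) and 152 and 218 (clone 16), and for i7 183 and 146 (parental), 177 and 182 (clone 7) and 182 and 205 (clone 12). The remaining Msmo1 values were 190 and 223 (parental) and 133 and 159 (clone 10) for i12, and 146 and 142 (parental) and 139 and 137 (clone 18) for i10. Msmo1 was lower in replicate 1 in d3, at a log2 difference of -0.42 (SE 0.10, adjusted p 0.00591), and in d6, at a log2 difference of -0.53 (SE 0.13, adjusted p 0.00835), without overlap in either, while in i10 the 4 values lay within 137 to 146 CPM. The d3 difference stayed within -0.50 to -0.35 without any 1 d3 library, and the d6 call was lost without any 1 of its 4 (-0.54 to -0.51, adjusted p 0.102 to 0.135). The joint test for Msmo1 gave adjusted p 0.0397.

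Both Msmo1 libraries of i12 clone 10 lay below both of its parental line, 146 ± 18.2 against 207 ± 23.3 CPM (SD, n = 2), a value of -0.51 (SE 0.24) with unadjusted p 0.0462 and adjusted p 1. Across the cholesterol branch 13 of 15 genes had lower values in i12 clone 10, and none was called. Their median was -0.20, against 0.00029 over all genes tested. These genes were read in the same libraries, so they are not separate observations. Hsd17b7 reduces the keto group left by demethylation. Hsd17b7 stood at 45.1 and 24.6 CPM (parental line), 46.7 and 34.1 (clone 12) and 51.8 and 34.5 (clone 21) in d3. Hsd17b7 reached 51.1 and 47.3 (parental) and 51.3 and 46.6 (clone 16) in d6, against 29.2 and 29.5 (parental), 24.4 and 34 (clone 7) and 26 and 26.1 (clone 12) in i7. Hsd17b7 values for i12 were 44 and 40.3 (parental) and 36.4 and 35.8 (clone 10), and for i10 36.6 and 31.7 (parental) and 30.7 and 35.7 (clone 18). In d3 replicate 1 of Hsd17b7 was above replicate 2 without overlap, by 0.63 (SE 0.12, adjusted p 0.0013), and no other recombination passed. Leaving out any 1 d3 library gave 0.50 to 0.73, always called, and the joint test passed (adjusted p 0.0268).

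Sc5d and Dhcr7 carry out the last desaturation and the last reduction to cholesterol. In d3, Sc5d measured 40.1 and 35.6 CPM for the parental line, 38 and 38.4 for clone 12 and 38.3 and 41.2 for clone 21. In d6, Sc5d measured 47 and 38.6 for the parental line and 56.4 and 42 for clone 16, and in i7 it measured 29.6 and 32 for the parental line, 29.9 and 38.7 for clone 7 and 31.2 and 35.2 for clone 12. In i12, Sc5d measured 43.8 and 41.8 for the parental line and 42.7 and 42.2 for clone 10, and in i10 it measured 44.4 and 33.5 for the parental line and 43.3 and 29.2 for clone 18. Replicate 1 of Sc5d was above replicate 2 without overlap in i10, 0.49 (SE 0.14, adjusted p 0.0273), and below it in i7 (-0.22, not called). The i10 call was lost without any 1 of the 4 libraries (0.41 to 0.60, adjusted p 0.148 to 0.293), and the joint test for Sc5d gave adjusted p 0.0322. Dhcr7 levels of the d3 libraries were 41.5 and 78.3 CPM (parental), 49.3 and 81.3 (clone 12) and 51.2 and 93.4 (clone 21). Those of Dhcr7 for d6 were 83.9 and 120 (parental) and 81.6 and 121 (clone 16), and for i7 66.1 and 65.3 (parental), 60.7 and 65 (clone 7) and 65.8 and 60.3 (clone 12). The remaining Dhcr7 values were 121 and 129 (parental) and 91.4 and 108 (clone 10) for i12, and 105 and 97.3 (parental) and 102 and 73.5 (clone 18) for i10. Dhcr7 was lower in replicate 1 in all 3 d3 lines, at a log2 difference of -0.83 (SE 0.10, adjusted p 2.00e-05), and in both d6 lines, at a log2 difference of -0.54 (SE 0.12, adjusted p 0.00599). In i7 the 6 values lay within 60.3 to 66.1 CPM. The d3 value stayed within -0.89 to -0.79 without any 1 library, the d6 call was lost without any 1 of its 4 (-0.57 to -0.51, adjusted p 0.0683 to 0.146), and the joint test for Dhcr7 gave adjusted p 0.000607.

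Fasn, fatty acid synthase (ENSMUSG00000025153.9, chr11:120805846-120824547, minus strand), builds palmitate from malonyl-CoA and varied most of the 30 genes. Fasn stood at 477 and 159 CPM (parental line), 446 and 346 (clone 12) and 462 and 356 (clone 21) in d3. Fasn reached 555 and 370 (parental) and 555 and 411 (clone 16) in d6, against 180 and 189 (parental), 172 and 178 (clone 7) and 336 and 306 (clone 12) in i7. Fasn values for i12 were 414 and 169 (parental) and 472 and 222 (clone 10), and for i10 388 and 154 (parental) and 303 and 139 (clone 18). Replicate 1 was above replicate 2 in all lines and clones of d3, d6, i12 and i10, and in i7 the replicates were alike while clone 12 stood above the parental line and clone 7. The replicate difference was 0.77 (SE 0.17, adjusted p 0.00337) in d3, 1.19 (SE 0.21, adjusted p 0.00105) in i12, 1.23 (SE 0.21, adjusted p 0.000933) in i10, 0.51 (SE 0.21, adjusted p 0.0943) in d6 and 0.0069 (SE 0.17, adjusted p 0.993) in i7, and it varied between recombinations in the joint test (adjusted p 0.0114). In d3 much of it came from the parental pair: it was 0.36 to 0.98 without each d3 library in turn, lowest without either parental library, and called each time. In i12 the call was lost without parental replicate 1 or 2 (1.09, adjusted p 0.0681 and 0.0702) and in i10 without parental replicate 1 or 2 (1.15 and 1.14, 0.0671 and 0.0718).

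In i7 clone 12, Fasn was at 321 ± 21 CPM (SD, n = 2) against 185 ± 6.5 in the parental line and 175 ± 3.78 in clone 7, with no overlap. The change against the parental line was 0.80 (SE 0.53, adjusted p 0.96), with an SE from the spread pooled over all lines. Fitted on the libraries of that comparison alone it was 0.80 (SE 0.11, adjusted p 0.0239). The change against clone 7 was 0.88 (SE 0.53, adjusted p 0.756), and 0.89 (SE 0.11, adjusted p 0.0295) when fitted alone. With all 24 libraries and the replicate block Fasn was also called against the parental line (0.80, SE 0.207, adjusted p 0.0311) and clone 7 (0.87, SE 0.207, adjusted p 0.0133). Among all genes, 1.64% and 2.2% were called in the fits of those libraries alone.

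Acaca, acetyl-CoA carboxylase, makes the malonyl-CoA that Fasn uses. In d3, Acaca measured 256 and 180 CPM for the parental line, 240 and 213 for clone 12 and 232 and 221 for clone 21. In d6, Acaca measured 231 and 202 for the parental line and 261 and 184 for clone 16, and in i7 it measured 165 and 159 for the parental line, 161 and 148 for clone 7 and 171 and 161 for clone 12. In i12, Acaca measured 192 and 117 for the parental line and 211 and 108 for clone 10, and in i10 it measured 196 and 94 for the parental line and 184 and 107 for clone 18. Replicate 1 libraries of Acaca were above replicate 2 libraries without overlap in d3, d6, i12 and i10. The difference was called in i12, 0.84 (SE 0.14, adjusted p 0.000474), and in i10, 0.92 (SE 0.14, adjusted p 0.000274), and not in d3 or d6. In i7 the 6 values lay within 148 to 171 CPM. Both calls held without any 1 of the 4 libraries (i12 0.76 to 0.96, i10 0.81 to 1.07). The joint test for Acaca gave adjusted p 0.00577. Acly makes acetyl-CoA from citrate. Acly levels of the d3 libraries were 630 and 419 CPM (parental), 636 and 680 (clone 12) and 659 and 674 (clone 21). Those of Acly for d6 were 658 and 689 (parental) and 698 and 695 (clone 16), and for i7 454 and 451 (parental), 426 and 411 (clone 7) and 430 and 385 (clone 12). The remaining Acly values were 589 and 388 (parental) and 608 and 467 (clone 10) for i12, and 598 and 365 (parental) and 539 and 392 (clone 18) for i10. Acly had the same order in i12, 0.49 (SE 0.15, adjusted p 0.0266), and in i10, 0.59 (SE 0.15, adjusted p 0.0106), and in d3 the parental replicate 2 library was below the other 5. Both Acly calls were lost without any 1 of the 4 libraries (0.38 to 0.64 in i12, adjusted p 0.0838 to 0.382; 0.48 to 0.73 in i10, adjusted p 0.0621 to 0.274).

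Me1, malic enzyme (ENSMUSG00000032418.15, chr9:86581371-86695953, minus strand), supplies NADPH for fatty acid synthesis. Me1 stood at 155 and 162 CPM (parental line), 171 and 245 (clone 12) and 147 and 175 (clone 21) in d3. Me1 reached 100 and 99.7 (parental) and 92.3 and 96.2 (clone 16) in d6, against 150 and 160 (parental), 171 and 177 (clone 7) and 150 and 130 (clone 12) in i7. Me1 values for i12 were 68.5 and 88 (parental) and 61.4 and 87 (clone 10), and for i10 82.8 and 92.8 (parental) and 79.5 and 86.3 (clone 18). The d3 and i7 libraries, 130 to 245 CPM, were all above the d6, i12 and i10 libraries, 61.4 to 100 CPM. The d3 parental line was above i12 by 1.02 (SE 0.20, adjusted p 0.00758) and above i10 by 0.85 (SE 0.20, adjusted p 0.0264), and i7 was above i12 by 0.99 (SE 0.20, adjusted p 0.0145). The first call was lost without i12 parental replicate 1 (0.86, adjusted p 0.0505), the second without d3 parental replicate 2 (0.83, 0.0871) or i10 parental replicate 1 (0.77, 0.0952) or 2 (0.92, 0.174), and the third without any 1 of its 4 libraries (0.84 to 1.18, adjusted p 0.0502 to 0.127). In i12 replicate 1 of Me1 was below replicate 2, at a log2 difference of -0.43 (SE 0.14, adjusted p 0.0347), lost without any 1 of the 4 libraries (-0.50 to -0.32, adjusted p 0.187 to 0.371).

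Elovl6 lengthens palmitate. In d3, Elovl6 measured 507 and 408 CPM for the parental line, 522 and 603 for clone 12 and 506 and 532 for clone 21. In d6, Elovl6 measured 461 and 485 for the parental line and 467 and 485 for clone 16, and in i7 it measured 452 and 410 for the parental line, 479 and 449 for clone 7 and 521 and 496 for clone 12. In i12, Elovl6 measured 413 and 389 for the parental line and 396 and 388 for clone 10, and in i10 it measured 394 and 334 for the parental line and 365 and 343 for clone 18. The i10 libraries, at 334 to 394 CPM, were low, and Elovl6 was called in no main comparison of summed counts. Elovl5 lengthens polyunsaturated chains. Elovl5 levels of the d3 libraries were 175 and 164 CPM (parental), 171 and 171 (clone 12) and 170 and 171 (clone 21). Those of Elovl5 for d6 were 151 and 151 (parental) and 160 and 145 (clone 16), and for i7 110 and 136 (parental), 123 and 138 (clone 7) and 106 and 120 (clone 12). The remaining Elovl5 values were 166 and 142 (parental) and 145 and 133 (clone 10) for i12, and 154 and 127 (parental) and 145 and 124 (clone 18) for i10. Elovl5 in i7, at 106 to 138 CPM, was below most other libraries, again with no call in the main tests of summed counts. Acss2 was near the limit of detection, with as few as 7 counts in a library. Acss2 stood at 3.56 and 1.96 CPM (parental line), 2.51 and 1.53 (clone 12) and 3.19 and 3.07 (clone 21) in d3. Acss2 reached 3.02 and 2.84 (parental) and 2.3 and 3.13 (clone 16) in d6, against 3.94 and 3.45 (parental), 3.08 and 4.13 (clone 7) and 2.71 and 2.27 (clone 12) in i7. Acss2 values for i12 were 2.86 and 5.61 (parental) and 2.33 and 1.65 (clone 10), and for i10 1.72 and 3.02 (parental) and 1.93 and 4.74 (clone 18). The largest clone change of all 210 was that of Acss2 in i12 clone 10, -1.05 (SE 0.50, unadjusted p 0.0512), which did not pass.

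Summed over the 7 fatty acid genes, levels in i12 were 1846 and 1299 CPM in the parental line and 1895 and 1408 in clone 10, and in i10 they were 1815 and 1170 in the parental line and 1618 and 1196 in clone 18. In d3 the parental line had 2204 and 1492 CPM while the 4 clone libraries lay between 2132 and 2261. The i7 libraries, 1504 to 1716 CPM, showed no gap by number. The sum is led by Acly, Elovl6 and Fasn, the genes with most counts.

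**Figure D4:**
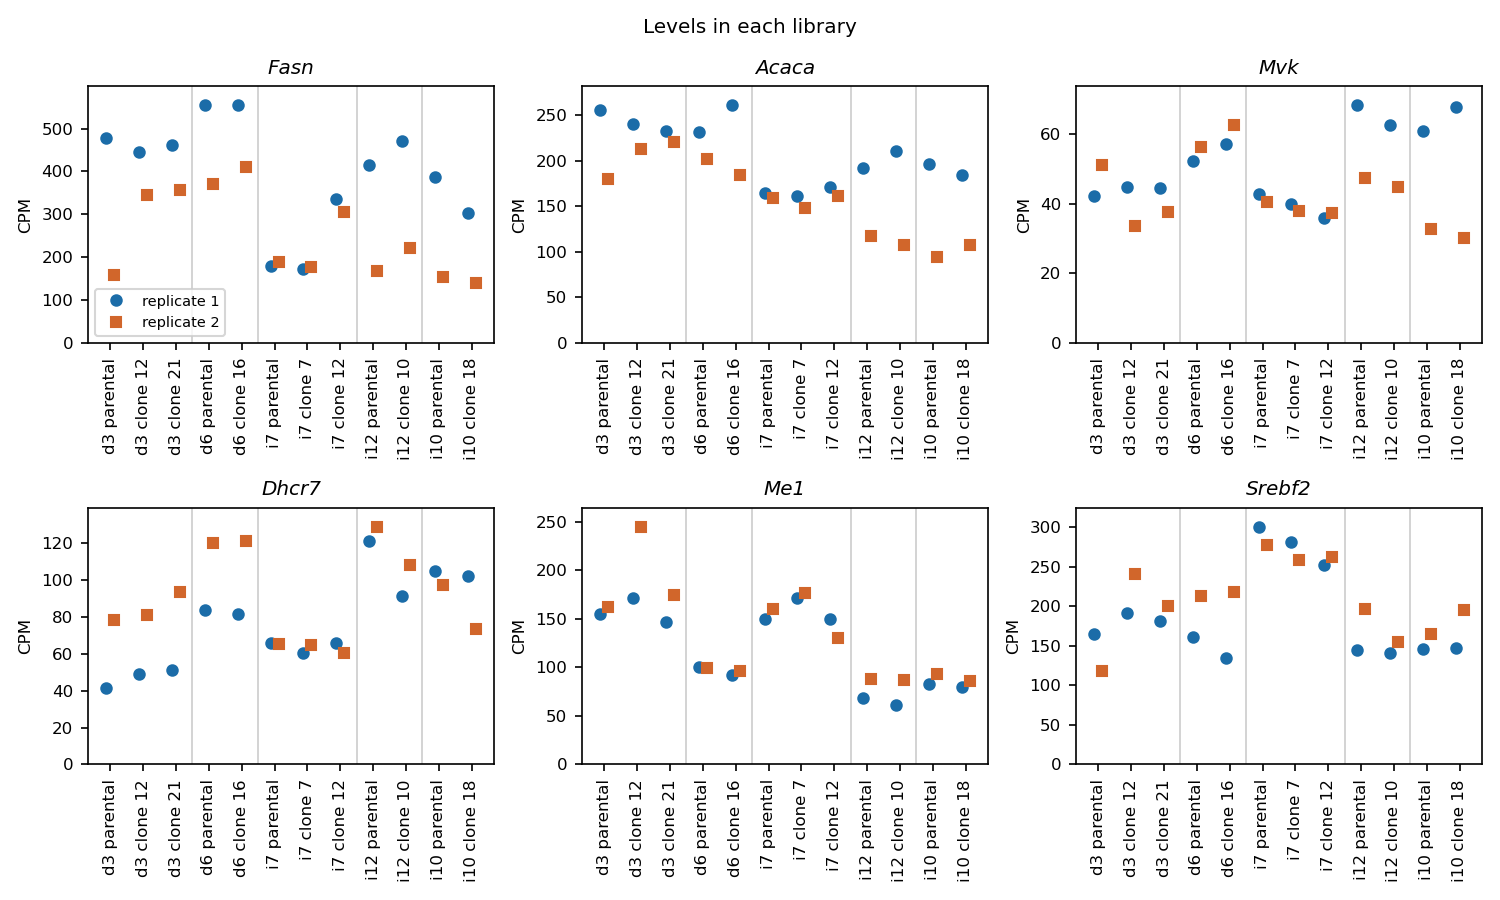
CPM of Fasn, Acaca, Mvk, Dhcr7, Me1 and Srebf2 in every library by line and clone, replicate 1 as blue circles and replicate 2 as orange squares. Fasn is higher in replicate 1 of d3, d6, i12 and i10, and Srebf2 is highest in i7.

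Srebf2 (ENSMUSG00000022463.8, chr15:82147181-82205379, plus strand) encodes SREBP-2, the main driver of the cholesterol genes. In d3, Srebf2 measured 165 and 118 CPM for the parental line, 191 and 241 for clone 12 and 182 and 200 for clone 21. In d6, Srebf2 measured 161 and 213 for the parental line and 135 and 218 for clone 16, and in i7 it measured 301 and 278 for the parental line, 282 and 259 for clone 7 and 252 and 262 for clone 12. In i12, Srebf2 measured 145 and 197 for the parental line and 141 and 155 for clone 10, and in i10 it measured 146 and 165 for the parental line and 147 and 195 for clone 18. All 6 i7 libraries, 252 to 301 CPM, were above all others, and d3 parental replicate 2 was the lowest of all. The d3 parental line, 142 ± 33.2 CPM (SD, n = 2), was below the i7 parental line, 289 ± 16.4, at a log2 difference of -1.03 (SE 0.24, adjusted p 0.0309). The value was -0.81 without d3 parental replicate 2 (adjusted p 0.168), -0.99 without i7 parental replicate 1 (0.237) and -1.08 without i7 parental replicate 2 (0.106). In d6 replicate 1 of Srebf2 was below replicate 2 at a log2 difference of -0.55 (SE 0.16, adjusted p 0.0247), lost without any 1 of the 4 libraries (-0.70 to -0.40, adjusted p 0.0862 to 0.382). In d3 clone 12 the change of 0.61 (SE 0.24) had unadjusted p 0.0195 and adjusted p 0.996. Without d3 parental replicate 2 this Srebf2 change was 0.38 and without replicate 1 it was 0.86 (adjusted p 0.0948), and it was 0.76 and 0.43 without replicate 1 or 2 of clone 12.

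Srebf1 encodes SREBP-1, which acts mainly on fatty acid genes. Srebf1 levels of the d3 libraries were 36.2 and 34.1 CPM (parental), 41.2 and 39.8 (clone 12) and 42.8 and 41.5 (clone 21). Those of Srebf1 for d6 were 38.7 and 42.9 (parental) and 40.7 and 50.6 (clone 16), and for i7 45.3 and 48.6 (parental), 36.3 and 42.6 (clone 7) and 48.1 and 56.1 (clone 12). The remaining Srebf1 values were 43.6 and 46.7 (parental) and 49.4 and 54.9 (clone 10) for i12, and 45.2 and 43.5 (parental) and 40.4 and 36.7 (clone 18) for i10. The range was narrow, and no main comparison of summed counts called Srebf1. In i7, clone 12 was above clone 7 by 0.40 (SE 0.16, adjusted p 0.484), and with the replicate block the SE was 0.118 and the adjusted p 0.0407. Nr1h2, the oxysterol receptor LXR beta, activates Srebf1. Nr1h2 stood at 31.2 and 35.9 CPM (parental line), 35.5 and 26.9 (clone 12) and 35.5 and 32.3 (clone 21) in d3. Nr1h2 reached 36 and 30.4 (parental) and 30 and 38.4 (clone 16) in d6, against 21 and 22.2 (parental), 20.4 and 19.2 (clone 7) and 28.4 and 30 (clone 12) in i7. Nr1h2 values for i12 were 38.8 and 31.1 (parental) and 47 and 41 (clone 10), and for i10 37 and 22.7 (parental) and 37 and 21.3 (clone 18). Nr1h2 was low in the i7 parental line and clone 7, and clone 12 lay above both without overlap (against clone 7 0.56, adjusted p 0.578, and 0.042 with the replicate block). In i10 replicate 1 was above replicate 2 by 0.75 (SE 0.19, adjusted p 0.0105), lost without any 1 of the 4 libraries (0.71 to 0.82, adjusted p 0.113 to 0.151).

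Scap (chr9:110333288-110384950, plus strand) escorts both SREBPs and was expressed at a low level. In d3, Scap measured 25.1 and 15.1 CPM for the parental line, 24.3 and 19.3 for clone 12 and 25.6 and 20.6 for clone 21. In d6, Scap measured 16.4 and 19.4 for the parental line and 17.3 and 18.8 for clone 16, and in i7 it measured 15.4 and 15.5 for the parental line, 14.9 and 13.1 for clone 7 and 14.5 and 14.5 for clone 12. In i12, Scap measured 12.4 and 18.9 for the parental line and 16.5 and 15.6 for clone 10, and in i10 it measured 13 and 19.9 for the parental line and 13.3 and 17.4 for clone 18. In d3 every replicate 1 library of Scap was above every replicate 2 library, by 0.45 (SE 0.14, adjusted p 0.0203), while in d6 the order was the opposite (-0.18, adjusted p 0.521). The d3 call was lost without parental replicate 1 (0.31, adjusted p 0.098) or 2 (0.32, 0.0797), and the joint test for Scap gave adjusted p 0.0401. Insig1, itself an SREBP target, retains Scap. Insig1 levels of the d3 libraries were 140 and 110 CPM (parental), 163 and 133 (clone 12) and 156 and 139 (clone 21). Those of Insig1 for d6 were 175 and 200 (parental) and 158 and 192 (clone 16), and for i7 147 and 134 (parental), 139 and 151 (clone 7) and 180 and 171 (clone 12). The remaining Insig1 values were 160 and 192 (parental) and 159 and 185 (clone 10) for i12, and 162 and 150 (parental) and 151 and 157 (clone 18) for i10. Insig1 was higher in replicate 1 in d3, by 0.27 (SE 0.091, adjusted p 0.0372), with the lowest value of all in d3 parental replicate 2. That call was lost without parental replicate 1 (0.21, adjusted p 0.0854) or 2 (0.23, 0.0626) and without either clone 12 library (0.26 both, 0.105 and 0.106).

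Insig2, the second retention protein, was low and nearly even. Insig2 stood at 18.9 and 16.9 CPM (parental line), 18.9 and 18.5 (clone 12) and 17.4 and 17.9 (clone 21) in d3. Insig2 reached 14.3 and 13.4 (parental) and 17.3 and 13.3 (clone 16) in d6, against 17.3 and 20 (parental), 17.4 and 19.7 (clone 7) and 16 and 18 (clone 12) in i7. Insig2 values for i12 were 20 and 19.1 (parental) and 18.6 and 18.2 (clone 10), and for i10 21 and 17.5 (parental) and 23.2 and 18 (clone 18). No main comparison of summed counts called Insig2. Stard4 carries cholesterol between membranes and is induced when sterol is low. In d3, Stard4 measured 141 and 88.2 CPM for the parental line, 155 and 157 for clone 12 and 146 and 157 for clone 21. In d6, Stard4 measured 197 and 189 for the parental line and 182 and 196 for clone 16, and in i7 it measured 156 and 163 for the parental line, 164 and 191 for clone 7 and 174 and 162 for clone 12. In i12, Stard4 measured 168 and 224 for the parental line and 158 and 181 for clone 10, and in i10 it measured 177 and 176 for the parental line and 162 and 175 for clone 18. The d3 parental replicate 2 library was at 88.2 CPM, below all other libraries. The d3 parental line, 115 ± 37.6 CPM (SD, n = 2), was below the i12 parental line, 196 ± 39.9, at a log2 difference of -0.77 (SE 0.19, adjusted p 0.0285). The value was -0.47 without d3 parental replicate 2 (adjusted p 0.172) and -0.57 without i12 parental replicate 2 (0.381). Against their parental line the changes were 0.44 in d3 clone 12 and 0.40 in clone 21, with unadjusted p 0.032 and 0.0499. Without d3 parental replicate 1 they were called, at 0.81 (adjusted p 0.0198) and 0.77 (0.029), and without replicate 2 they were 0.14 and 0.10.

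Because the cells are hybrids, reads that cover a strain difference show which parental copy they came from, and the table gives 129S1 and CAST counts for each gene. The allelic ratio is the log2 ratio of 129S1 to CAST counts, tested on 10795 genes with at least 10 counts of each allele on average, 29 of the 30 among them. A preference in mapping for one strain's sequence, or a near copy that draws reads, cannot be told apart from a difference in expression between the copies. In the parental lines 24 of the 29 genes (82.8%, against 69.2% of all genes) differed from an even ratio, 14 with more 129S1 and 10 with less (36.1% and 33.1% of all genes). The 129S1-high genes were led by Idi1 (3.88), Fdps (1.97), Msmo1 (1.56), Fdft1 (1.30), Pmvk (1.27) and Hsd17b7 (0.96). The CAST-high genes were led by Insig1 (-1.98) and Hmgcs1 (-0.96). Me1, with too few 129S1 counts to be tested, is described separately. Among the other 6 fatty acid genes the called ratios ran from -0.42 for Elovl6 to 0.21 for Elovl5. Insig2 (-0.23) lost its call without 1 of 5 parental libraries: d3 replicate 2 (-0.16, adjusted p 0.105), d6 replicate 1 (-0.22, 0.0658), i7 replicate 2 (-0.23, 0.054), i12 replicate 1 (-0.22, 0.0699) or i10 replicate 1 (-0.22, 0.0836).

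Idi1 had a median 129S1 share of 93.6% in the parental libraries, and Insig1 one of 20%. Me1 was the extreme: over all 24 libraries it had 40 counts of 129S1 and 29393 of CAST, with 11 libraries at 0 and at most 8 counts of 129S1 in any library. With a floor of 3 counts per library, CAST counts of Me1 were at least 96-fold to at least 909-fold higher. Several of these genes share sequence with others in the table. Gm48342, antisense to Hmgcs1 with 462 shared bases, had 21358 counts of 129S1 and 15 of CAST. Gm5873, the near copy of Fdps, had 7055 and 0. Gm48795, which matches Me1 at 98.7% over 1159 bases, was not one-sided, with 5133 and 6528. Their part in the ratios was not tested.

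Against this background 1 of 203 clone tests passed, Fdft1 in d3 clone 21. The d3 parental libraries had 925 and 1219 counts of 129S1 against 408 and 318 of CAST, clone 12 had 1213 and 796 against 583 and 462, and clone 21 had 713 and 736 against 831 and 772. The 129S1 share was 69.4% and 79.3% in the parental line, 67.5% and 63.3% in clone 12, and 46.2% (95% Wilson interval 43.7 to 48.7) and 48.8% (46.3 to 51.3) in clone 21. Clone 21 lay below all the other libraries, which ranged from 63.3% to 79.3%. The allelic ratio fell by 1.70 on the log2 scale (SE 0.20, adjusted p 1.91e-06; 3.41% of all genes were called in this clone), and it stayed within -2.08 to -1.33 without any 1 of the libraries. On the CPM scale 129S1 Fdft1 went from 101 ± 34.6 to 60.6 ± 3.04 and CAST Fdft1 from 33.2 ± 0.713 to 66.9 ± 1.62 (SD, n = 2), while the summed level was nearly level, at -0.074 (SE 0.16).

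Clone 21 also differed from clone 12 in a test added after the data were seen, at a log2 difference of -1.07 (SE 0.196, adjusted p 0.000855, beside 352 of all genes). Fdft1 is the only gene of the set on chromosome 14, and in d3 clone 21 the ratio was called for 351 of the 382 tested genes of that chromosome and was lower for 371 of them. The median change on chromosome 14 was -6.87, and 49 of the 382 genes fell less than Fdft1 or did not fall. Of the 9 other tested genes within 1 Mb, 1 fell less than Fdft1. In d3 clone 21 these 9 had 129S1 shares of 0% to 18.9%, with a median of 0.159%, against a median of 38.1% in the d3 parental line. Ctsb, which overlaps Fdft1 on the other strand by 774 bases, was at 0.159%, while Fdft1 was at 47.5% with both libraries summed. A near copy of Fdft1, Gm6781 (97.4% over 1249 bases), was not analysed here, and its part was not tested. In the other clones none of the 29 genes was called, beside 0.0463% of all genes in d3 clone 12 and d6 clone 16, 0.00926% in i7 clone 7 and i12 clone 10, 2.33% in i7 clone 12 and 0% in i10 clone 18, and their unadjusted p values were under 0.05 for 4 genes each in d3 clone 12 and i12 clone 10, 1 in d6 clone 16 and 0 in the rest. In i7 clone 12, 225 of 382 genes of chromosome 19 were called, and no gene of the set lies there. Scap, on chromosome 9, had changes of -0.19 in d3 clone 12, 0.028 in its sister clone 21 and 0.40 in d6 clone 16, all with adjusted p 1. In i12 clone 10 Scap had 5.07 ± 0.168 CPM of 129S1 and 10.9 ± 0.796 of CAST (SD, n = 2). Its parental line had 6.2 ± 2.04 and 9.42 ± 2.55, and this lower 129S1 share was not called either.

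The library that stands apart also moved the ratios. In d3 parental replicate 2 the 129S1 share of Hmgcs1 was 22.1% (20.8 to 23.6), against 30.2% to 40.3% in all other libraries, and that of Srebf2 was 72.6% (69.9 to 75.1), against 55.7% to 62.3%. Its share was the highest or lowest of all libraries for 6 of the 29 genes, as it was in i12 parental replicate 1. Without d3 parental replicate 1, so that replicate 2 stood alone for the line, the count of clone calls rose from 1 to 7. The added calls were Fdft1 (-1.01), Srebf2 (-0.94), Acat2 (0.75) and Hmgcs1 (0.89) in d3 clone 12, and Srebf2 (-0.82) and Hmgcs1 (0.80) in d3 clone 21.

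**Figure D5:**
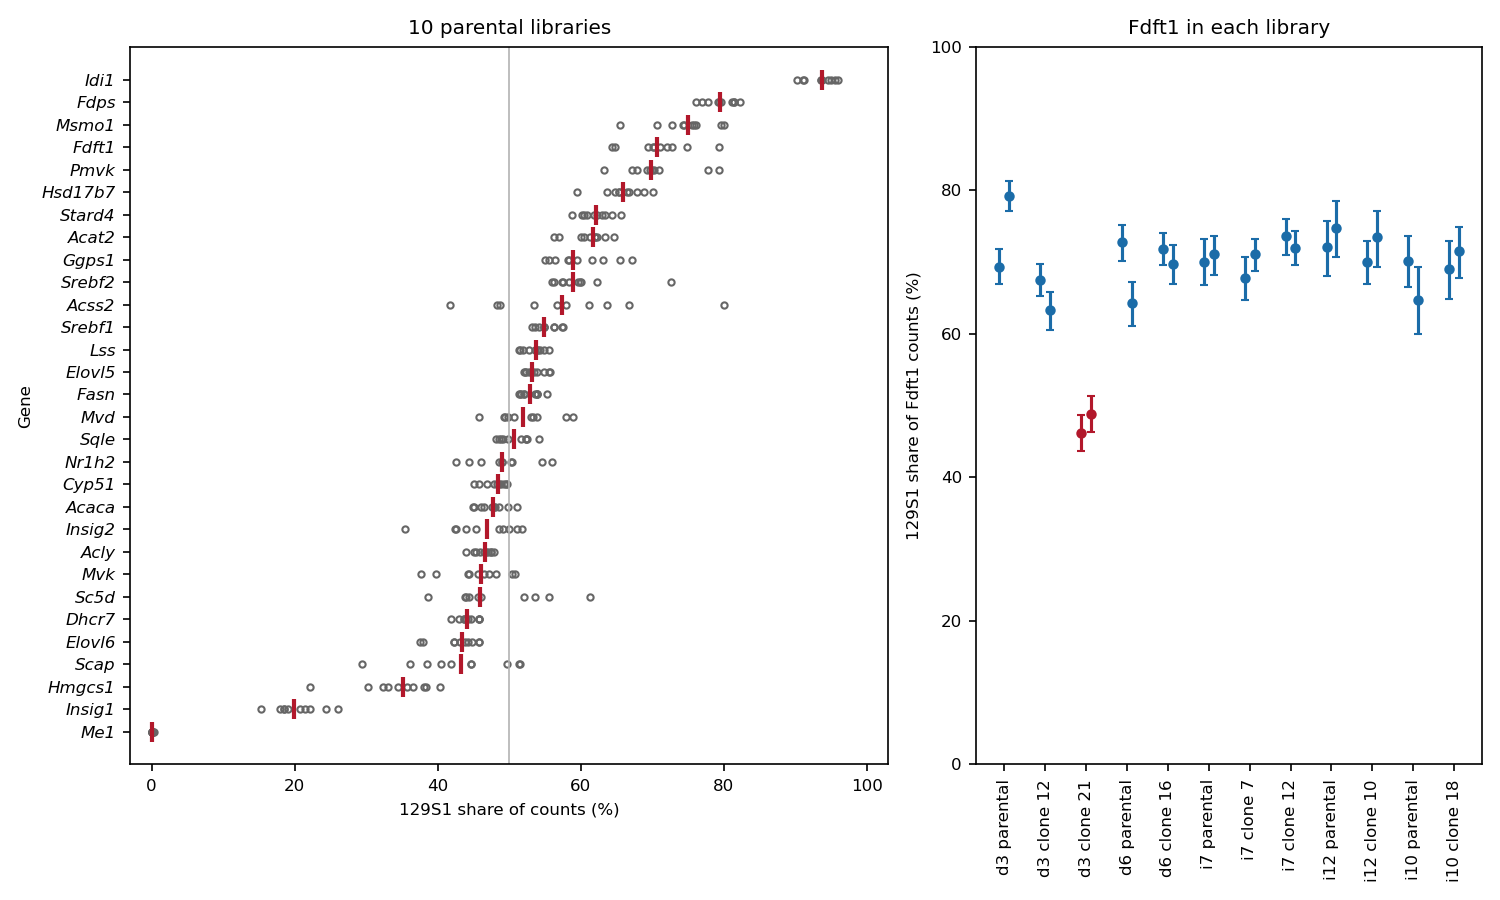
Left, 129S1 share of counts (%) for each gene in the 10 parental libraries, with the median as a red bar, from Me1 near 0 to Idi1 at 93.6%. Right, the 129S1 share of Fdft1 in each library with its 95% Wilson interval: d3 clone 21, in red at 46.2% and 48.8%, lies below all other values of 63.3% to 79.3%.

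For comparison, 30 further genes of sterol uptake, transport and lipid synthesis were listed, and 28 passed the filter. None of their 196 clone tests passed, and 5 had an unadjusted p under 0.05, all in i7 clone 12 (5 of 28 genes, against 6.19% of all genes). In pairs of parental lines 3 of 280 tests passed, 2 higher and 1 lower (0% to 4.96% of all genes in a pair). Between replicate numbers 44 of 140 passed, 17 higher and 27 lower. Of the 28 genes, 15 passed in d3 (against 28.6% of all genes), 9 in d6 (19.6%), 9 in i12 (19.4%) and 11 in i10 (17.7%). In i7 0 passed (against 4.31%), with 6 at an unadjusted p under 0.05 (17.1% of all genes). Of their allelic ratios 18 of 25 differed from even in the parental lines (against 69.2% of all genes). In the clone tests of the ratio 6 of 175 passed, all in i7 clone 12 (2.33% of all genes) and all on chromosome 19.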

How the data were processed

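Polyadenylated RNA of 24 libraries was sequenced with a strand-marking kit, per the labels' protocols. The deposited table holds whole-number read counts per Ensembl gene, in 1 column for 129S1 and 1 for CAST per library. STAR and SAMtools and the build mm10 are named in the submitters' processing notes without versions; the counting program, its strand setting and the treatment of reads that cover no strain difference are not given in the sources used here. Total counts, the sum of both columns, ran from 3286819 to 15581094 per library. No library was left out of the main fits.

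Of 48985 identifiers, 48301 were identical to GENCODE M21, 48838 matched without the version, and the 147 unmatched held 0.0148% of counts. The 30 genes and the comparison lists were chosen with earlier results of these data known. CPM used TMM-normalised library sizes. Summed counts were fitted with edgeR 4.0.16 (R 4.3.3; quasi-likelihood test, filter filterByExpr, 16253 genes, 12 groups, all libraries), and clones, parental lines and replicate numbers were contrasts of such fits. The allelic ratio was fitted in edgeR as 129S1 against CAST columns within each library (10795 genes whose columns of each strain averaged 10 counts or more). P-values were adjusted by Benjamini-Hochberg over all genes, with a threshold of 0.05, and in the clone, line and allelic tests measure the spread between the 2 libraries of each line. The replicate-number tests keep line and clone in the model and measure what is left after the replicate difference. No label ties a number to a shared culture or day. Same-numbered libraries of a recombination still deviated together in every pair (r 0.40 to 0.71, median 0.56, 9 pairs), so the pairing within recombinations comes from the data. Between recombinations they did not do so in every pair (-0.22 to 0.64, median 0.21, 57 pairs). Lines of d3 with d6 (0.40 to 0.62) and of i12 with i10 (0.55 to 0.64) were about as close as lines of 1 recombination. Replicates of a line differed beyond counting noise. Alternatives were DESeq2 1.42.0, other filters, each allele alone, replicate blocks, fits of the compared libraries only and leaving out each library; 4 tests were added after the data were seen. Wilson intervals (95%) and the floor of 3 counts cover counting error only, since reads had no molecular identifiers. The scripts were tested on simulated data.

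All 30 genes could be named. Values in every library were given for every gene called in a main test, for the 5 with the largest spread, and for Hmgcs1, Sqle, Insig1, Stard4, Srebf1, Srebf2, Scap, Fasn, Fdft1 and Nr1h2; the rule left out only Mvd. Promoter sequences are from RefSeq (GRCm38.p6). Marker genes of stem cells, primitive endoderm, mesendoderm, neural cells, trophoblast and fibroblasts were summed in each library: mesendoderm markers reached 4.23 to 60.8 CPM, neural markers 30 to 78.2, trophoblast markers 0 to 8.93 and fibroblast markers 3.93 to 25.7.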

Additional observations from a re-analysis of the deposited data

Results flagged for a closer look

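For 11 of the 30 genes, and 4017 of all 16253 genes tested, the difference between libraries numbered 1 and 2 varied between the 5 recombinations. This was a joint edgeR test of that difference, added after the data were seen. The adjusted p was 0.000607 for Dhcr7, lower in number 1 in d3 and d6 and even in i7. It was 0.00173 for Pmvk, where d3 alone passed, and 0.00405 for Fdps, which was lower in number 1 in d3 and d6 and higher in i10. It was 0.00576 for Mvk and 0.00577 for Acaca, both called as higher in number 1 in i12 and i10. It was 0.0114 for Fasn, 0.0268 for Hsd17b7, 0.0322 for Sc5d, 0.0367 for Ggps1, 0.0397 for Msmo1 and 0.0401 for Scap. The allelic ratio of Fdft1 differed between d3 clones 21 and 12 (edgeR adjusted p 0.000855), as did that of 352 of all 10795 genes tested.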

How the results depend on the processing

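Of 73 results for single genes, none changed direction under any alternative run and 33 kept their side of the threshold throughout, 31 of them calls. No call between clone and parental line became 1 with 129S1 counts alone and 1 with CAST counts alone (both Fdft1 in d3 clone 21, -0.72 and 0.98), 1 with only the libraries of the comparison (Fasn in i7 clone 12) and 0 to 2 without each library. Between clones it became 1 without a filter on low counts and 1 with only the compared libraries, both Fasn in i7, and 0 to 0 without each library. The 7 calls between parental lines became 17 with DESeq2, 15 without a filter, 4 with 129S1 counts alone (3 of the 4 testable ones among them), 1 with only the compared libraries, and 4 (without d3 parental replicate 2) to 15 (without d3 parental replicate 1) when a library was left out. The 33 replicate calls ran from 19 to 46, the single allelic clone call from 1 to 7 and the 24 allelic parental calls from 23 to 25 without each library. Of the 33, DESeq2 lost 7, no filter lost 6, and a fit of only the compared libraries lost 9, all in d3, and gained 16, of them 1 in d6, 2 in i7 (Elovl5 -0.21 and Hmgcs1 -0.19), 7 in i12 and 6 in i10. DESeq2 gained none and no filter gained 3. The causes were not tested. With 2 libraries a line and a median SE of 0.24 in the clone tests, small changes were out of reach. In the main fit, clone changes of up to 1.05 in size went uncalled too.

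With a replicate block the clone calls became 2 (Fasn 0.80 and Hmgcs1 0.60 in i7 clone 12), the clone-to-clone calls 5 (Srebf1, Ggps1, Fasn, Nr1h2 and Hmgcs1 in i7) and, with 1 block shared by all recombinations, the parental calls 23, the first 7 included. The block within recombinations changed no other clone call, the allelic one included.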
